A study of Mus musculus with 8 samples.

Results

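The genes of TGF-beta and BMP signalling were examined in a murine spleen stromal cell line, mSSC-YFP, by RNA-seq. A total of 58 genes were chosen by symbol as ligands, binding proteins, receptors, SMADs, regulators and targets of the pathway, and 52 of them had a row among the 12589 genes of the table analysed here. The line is immortalized, derived from mouse spleen and marked with a yellow fluorescent protein, so the values describe 1 line in culture and not stroma in the animal. Cells were grown in DMEM with serum and antibiotics and were treated for 48 h either with BMS493, an inhibitor of signalling through the retinoic acid receptors, or with its vehicle DMSO. The labels list 4 samples with DMSO and 4 with BMS493. The measurement used here is 1 value per gene, the authors' mean log2 normalised expression, read as the mean over all 8 samples, which pools both treatments. Values of single samples were not analysed here, so neither the depth of a library nor a spread between replicates can be given, and the differences described below carry no error and no test. No difference between BMS493 and DMSO is given either, because the only values for it in the table are the results of the authors' own comparison.

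Ligands of the TGF-beta superfamily are secreted dimers that bring together a type I and a type II serine/threonine kinase receptor. TGF-beta and activin receptors phosphorylate SMAD2 and SMAD3, BMP receptors phosphorylate SMAD1 and SMAD5, and both pairs enter the nucleus with SMAD4. TGF-beta is secreted in a latent form bound to matrix through latent TGF-beta binding proteins, and BMPs are held back by secreted proteins that bind them. In fibroblasts the TGF-beta branch is known for inducing matrix and contractile genes, and the BMP branch for inducing the Id genes.

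A longer transcript yields more reads at the same abundance. Levels are therefore compared between genes as the mean log2 normalised expression minus the log2 of the gene's exon length in kb, named the level from here on, so that 1 unit is a 2-fold difference. The exon length is the union of all annotated exons in GENCODE M21 on GRCm38, the same assembly as mm10. Over the 12365 genes with a level, the median was 2.85, the middle 50% lay between 1.42 and 4.15, and the top 10% began at 5.40. Of 15 markers of spleen stroma 14 had a row and 11 lay above the median of all genes, among them Col1a1 at a level of 10.57, Vim at 9.54 and Cxcl12 at 8.08. Under that median were Pdgfra at 1.92, Islr at 2.40 and Nkx2-5 at 2.79. Tlx1, which like Nkx2-5 encodes a transcription factor of spleen stroma, was at 3.72. No row was found for any of 8 B cell markers. Of 6 endothelial markers 2 had a row, Kdr at -0.34 and Pecam1 at -2.17, and of 6 macrophage markers 1 did, Cd68 at 1.03. Of 6 epithelial markers 4 had a row, and 2 of them, Krt19 at 6.82 and Cdh1 at 5.83, lay in the top 10% of all genes. Krt8 was at 0.58 and Krt18 at -0.21, and Epcam and Cldn4 had no row.

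The 52 genes spread widely. Their median level was 2.95, and 26 of the 52 lay above the median of all genes, the share of 50% that defines a median. The top 10% of all genes held 7 of the 52, or 13.5%. These were Fstl1, Ltbp1, Id1, Crim1, Id3, Grem1 and Tgfbr2, in that order. The lowest was the activin type II receptor gene Acvr2b at -1.32, which is 499-fold below Fstl1, the highest, at 7.64. Of all genes with a level, 434 were lower than Acvr2b and 177 higher than Fstl1. No row was found for Gdf5, Bmp6, Gdf10, Nog, Chrdl1 and Bmpr1b. How the authors filtered genes of low expression is not given in the sources used here, and a missing row was not read as a level.

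**Figure D1:**
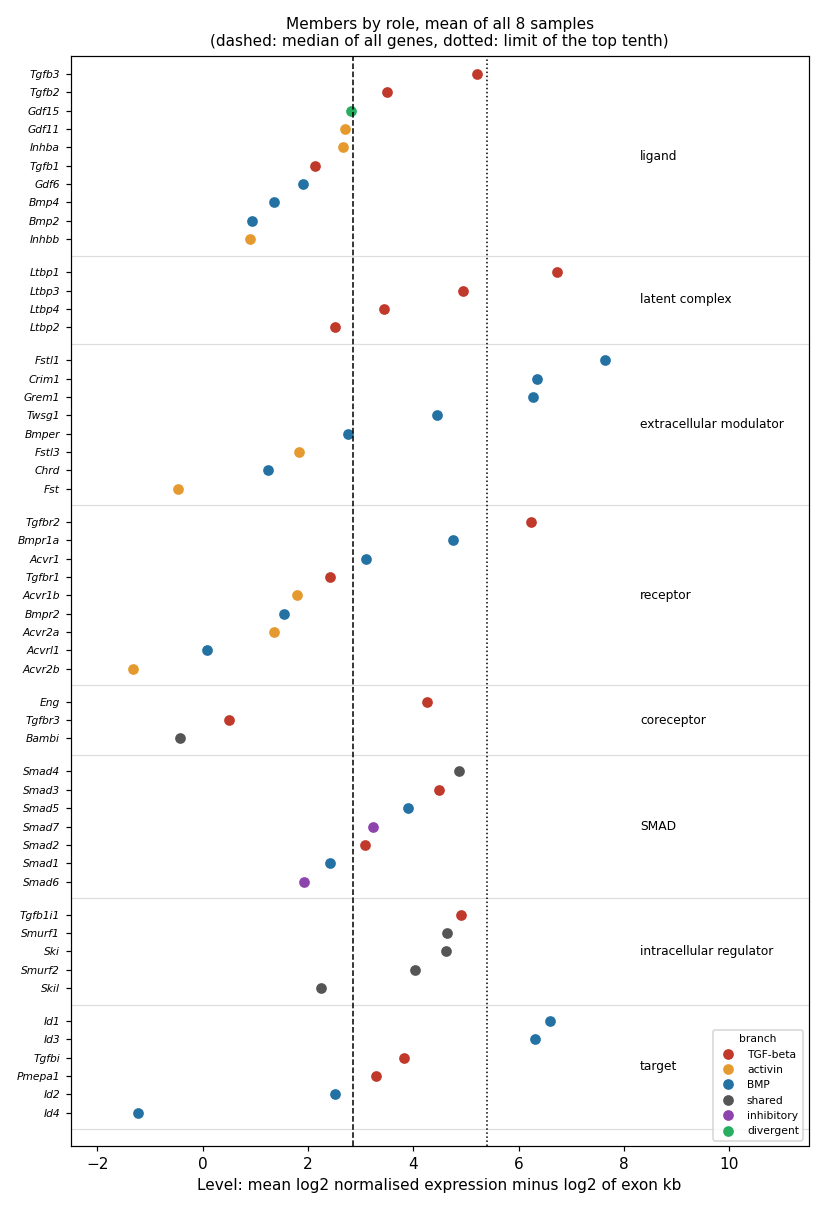
Level of each of the 52 genes, as the mean log2 normalised expression over all 8 samples minus the log2 of exon kb, grouped by role and coloured by branch of the pathway. Each point is 1 pooled value without an error; the dashed line is the median of all genes (2.85) and the dotted line the start of the top 10% (5.40), which 7 genes exceed.

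Among the ligands, each TGF-beta isoform stood above each BMP with a row. Tgfb3 had the highest level of the 10 ligand genes, 5.22, at percentile 88.6 of all genes. Of its exon length 12.4% is also covered by Gm48008 on the other strand, so its level is uncertain to the extent that counting ignored the strand, which is not given in the sources used here. Tgfb2 followed at 3.50, and Tgfb1, the isoform most studied in fibrosis, was at 2.14. On the linear scale Tgfb3 made up 70.3% of the summed level of the 3 isoforms, Tgfb2 21.4% and Tgfb1 8.35%. The value of Tgfb1 depends on the length taken, since its annotated exons cover 5.04 kb and its longest transcript 2.57 kb. With the longest transcript its level was 3.12, still below both other isoforms. Of the BMP ligands, Gdf6 was at 1.90, Bmp4 at 1.35 and Bmp2 at 0.93, all under the median of all genes. Summed on the linear scale, the 3 TGF-beta isoforms came to 6.46 times the 3 BMP ligands. Bmp4 was above Bmp2 only once length was taken into account, and without it Bmp2 was the higher by 0.24 on the log2 scale.

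The activin-type and divergent ligands overlapped with these groups. Gdf11 was at 2.70 and Inhba, which encodes the subunit of activin A, at 2.67, both above Tgfb1 with the union of exons and below it with its longest transcript. Inhbb, the gene of the activin B subunit, was the lowest ligand of all at 0.90, just under Bmp2. Gdf15, a stress-induced family member that signals outside the SMAD pathway, was at 2.82, next to the median of all genes. In all, 2 of the 10 ligand genes, Tgfb3 and Tgfb2, exceeded that median and none was in the top 10%.

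The latent TGF-beta binding proteins, which tether latent TGF-beta to the matrix, were in sum higher than the TGF-beta isoforms. Ltbp1 reached 6.73, the second highest of all 52 genes. It lies on chromosome 17 from 75005568 to 75392512, and it alone gave 69.2% of the summed level of the 4 Ltbp genes. Ltbp3 was at 4.94 and Ltbp4 at 3.45. Ltbp2, whose product does not bind latent TGF-beta, was the lowest at 2.51. The sum over the 4 genes was 2.90 times that over the 3 TGF-beta isoforms, and 4.08 times with the longest transcript of each gene. That difference comes from Ltbp1 and Ltbp3, whose levels reach 7.41 and 5.61 when the longest transcript replaces the union of exons.

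**Figure D2:**
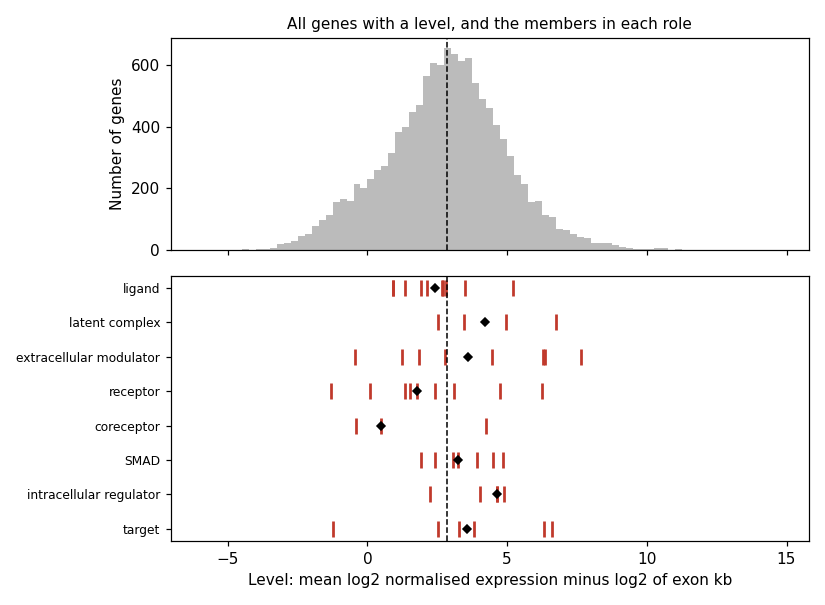
Above, the number of genes by level (log2 scale per kb) for all 12365 genes with a level; below, the genes of each role as red ticks with the median of the role as a black diamond. The dashed line is the median of all genes, 2.85; receptors (median 1.79) and ligands (2.41) lie mostly to its left, and intracellular regulators (4.63) mostly to its right.

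Of the 6 extracellular modulators of BMPs with a row, 3 were in the top 10% of all genes and 2, Bmper and Chrd, lay under the median. Fstl1, a follistatin-like glycoprotein secreted by mesenchymal cells and reported to bind BMP4, had the highest level of the 52 genes, 7.64, at rank 178 of 12365. It lies on chromosome 16 from 37776873 to 37836514. Crim1, a transmembrane protein with cysteine-rich repeats that bind BMPs, was at 6.36 (chromosome 17, 78200248 to 78376592). Grem1, a secreted BMP antagonist and a known marker of stromal cells, was at 6.27 (chromosome 2, 113746164 to 113758646). Against Bmp4, one of the ligands it binds, Grem1 was 30.2-fold higher. Twsg1, which acts with chordin, was at 4.46, and Bmper, a crossveinless-type BMP binding protein, was at 2.77. Chrd itself, the gene of chordin, was the lowest BMP modulator at 1.25. Fstl1, Crim1 and Grem1 together with these 3 genes summed to 47.6 times the level of the 3 BMP ligands, and Fstl1 gave 51.2% of the modulators' sum. Crim1 is the only one of them that is anchored in the membrane, and without it the ratio was 37.6.

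The activin antagonists were low. Fst, the gene of follistatin, was at -0.46, the lowest of the 8 extracellular modulators. Its exons overlap in part with an antisense gene model over 2.51% of their length, and with the longest transcript its level was 0.19. Inhba was 8.76-fold above Fst. Fstl3, a related activin binding protein, was at 1.83, but 47.3% of its exon length is also covered by a gene on the other strand, Prss57. The library was stranded according to the methods of the paper, but whether counting used the strand is not given in the sources used here, so the level of Fstl3 is uncertain.

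The receptors had a median of 1.79, and 3 of the 9 with a row exceeded the median of all genes. Tgfbr2, the type II receptor that binds TGF-beta first, was the highest at 6.24, at percentile 95.1 (chromosome 9, 116084293 to 116175360). Tgfbr1, its type I partner, was at 2.42, so that Tgfbr2 was 14.1-fold higher. Among the 4 type II receptors Tgfbr2 gave 92.8% of the summed level. Bmpr2, the BMP type II receptor, was at 1.54, or 3.56% of that sum. Its exons cover 17.98 kb, the longest of all 52 genes, and without a correction for length it stood at percentile 63.9 against 26.6 with it. Acvr2a, a type II receptor for activins and some BMPs, was at 1.35, and the related Acvr2b at -1.32.

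The order was different among the type I receptors, where BMP receptors led. Bmpr1a was at 4.75 and gave 59.4% of the summed level of 5 genes. Acvr1, also known as ALK2, was at 3.10. Tgfbr1 came next with 11.8% of the sum. Acvr1b, the activin type I receptor, was at 1.79, and Acvrl1, a receptor known mainly from endothelium, was at 0.09. The median of the 4 BMP receptors was 0.53 above that of the 5 TGF-beta and activin receptors pooled. This difference was 1.61 without the length correction, 1.05 with the longest transcript and 0.22 among genes whose mean was 1 or more on the log2 scale, so its size is not settled. Its direction depends on the pooling. The median was 4.33 for the 2 TGF-beta receptors, 2.32 for the 4 BMP receptors and 1.35 for the 3 activin receptors. The BMP receptors thus lay below the TGF-beta receptors and above the activin receptors. The coreceptors differed from each other. Eng, which encodes endoglin, was at 4.25, Tgfbr3, the gene of betaglycan, at 0.50, and Bambi, a decoy receptor without kinase activity, at -0.42.

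**Figure D3:**
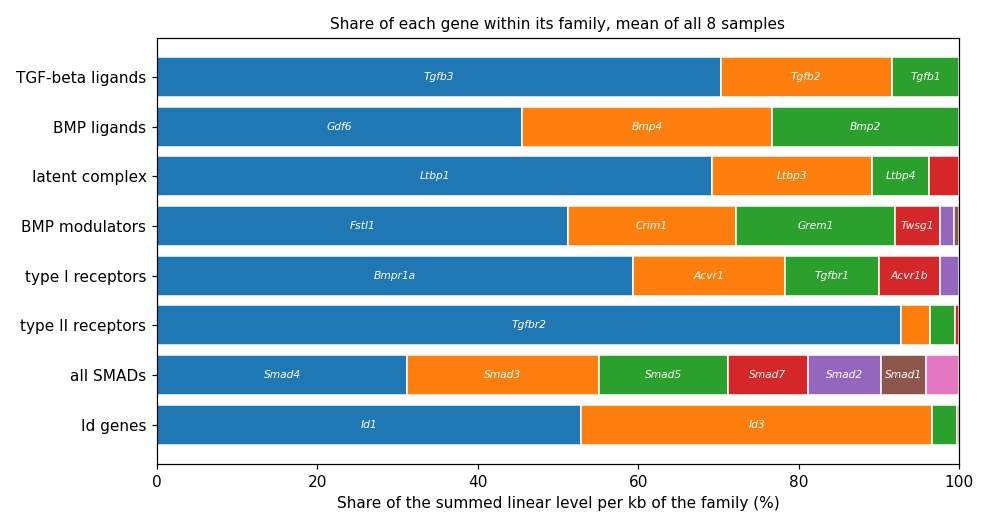
Share of each gene in the summed linear level per kb of its family, in percent, from the mean over all 8 samples; each bar adds up to all genes of the family with a row, and unlabelled segments are under 5.5%. Tgfb3 (70.3%), Ltbp1 (69.2%), Tgfbr2 (92.8%) and Bmpr1a (59.4%) take most of their families, whereas Id1 (52.9%) and Id3 (43.7%) share theirs.

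All 7 SMAD genes of the list had a row, and their levels lay within a 7.69-fold range. Smad9, a further BMP-activated SMAD that is not among the 58 genes, was at -0.71, and with it the range was 47.5-fold. Smad4, the common partner, was the highest at 4.87. Of the receptor-activated SMADs, Smad3 was at 4.48 and Smad2 at 3.08 in the TGF-beta branch, and Smad5 was at 3.91 and Smad1 at 2.41 in the BMP branch. Smad3 was thus 2.65-fold above Smad2, and Smad5 was 2.83-fold above Smad1. Summed, Smad2 and Smad3 came to 1.51 times Smad1 and Smad5. With the longest transcript the level of Smad1 was 3.14, which is 1.66 times higher. Of the inhibitory SMADs, Smad7, which blocks both branches, was at 3.24 and Smad6, which acts mainly on BMP signals, at 1.92.

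The regulators that act on SMADs inside the cell were high as a group, with a median of 4.63 and 4 of 5 above the median of all genes. Tgfb1i1, which encodes the focal adhesion protein Hic-5 and is named for its induction by TGF-beta1, was at 4.90. The ubiquitin ligase genes Smurf1 and Smurf2, whose products mark SMADs and receptors for degradation, were at 4.64 and 4.03. Ski, a nuclear corepressor of SMADs, was at 4.63, and its relative Skil at 2.24, or 5.23-fold lower by the same measure.

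Of the Id genes, targets of BMP-activated SMADs that encode inhibitors of basic helix-loop-helix factors, 2 of 4 were in the top 10% of all genes. Id1, on chromosome 2 from 152736251 to 152737410, was at 6.59, and Id3, on chromosome 4 from 136143497 to 136145755, was at 6.32. Their exons cover 1.16 and 1.79 kb, and without the length correction they stood at percentiles 83.9 and 88.3, outside the top 10%. Together they gave nearly the entire level of the family, with Id1 at 52.9% and Id3 at 43.7%. The order of Id1 and Id3 is not settled, because Id3 was the higher by 0.35 without a length correction and by 0.21 with the longest transcript. Id2 was at 2.51, lower than Id3 by 3.81 on the log2 scale, and Id4 was at -1.22. The TGF-beta-induced genes lay closer together. Tgfbi, a secreted matrix protein, was at 3.83, and Pmepa1, whose product restrains TGF-beta signals, was at 3.29, both above the median of all genes.

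Some members are neighbours in the genome, with a gap under 250 kb, and neighbours did not always have like levels. Tgfbi and Smad5, 63.4 kb apart on chromosome 13, differed by 0.08 on the log2 scale. Acvrl1 and Acvr1b, both type I receptor genes, are 28.7 kb apart on chromosome 15 and differed by 1.70. Smad3 and Smad6 lie 195 kb apart on chromosome 9, and Smad6 was lower by 2.56 on that scale.

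The median level was 2.41 for the ligands and 3.61 for the 8 extracellular modulators, a difference of 1.21. Without the transmembrane Crim1 the median of the modulators was 2.77 and the difference 0.36. For receptors minus ligands the difference was -0.62. The exons of the receptor genes covered a median of 5.69 kb and those of the ligand genes 3.81 kb, and without the length correction the receptors were above the ligands by 1.03. Without replicate values it cannot be said whether either difference exceeds the spread between samples.

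Other genes of the pathway, listed beside the 58, had a row in 49 of 79 cases, with a median level of 3.01 and 11 in the top 10%. The highest was Thbs1 at 9.28, the gene of thrombospondin 1, which can activate latent TGF-beta. Bgn at 8.63 encodes biglycan, a matrix proteoglycan that binds TGF-beta. Itgb1, the integrin beta 1 subunit, was at 8.38. Ctgf, a matricellular gene induced by TGF-beta, was at 7.71, and Strap, which encodes a protein that binds TGF-beta receptors and SMAD7, was at 6.40. Of these 5, the first 4 exceeded Fstl1, the highest of the 52. For Ctgf this depends on the length correction, since without it Ctgf was at 9.22 and Fstl1 at 9.94 on the log2 scale. Ltbp1, at 10.15, was then the highest of the 52.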

How the data were processed

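RNA-seq of 8 samples of 1 mouse stromal line was analysed from a single deposited table. According to the methods of the paper and the submitters' processing notes, the authors used FastQC, alignment to mm10 (GRCm38) with STAR 2.3.0e, gene counting of uniquely placed reads in Rsubread against Ensembl models, M-value scaling and limma. The protocol in the labels describes amplification for arrays and qPCR instead. The deposited table gives, per gene, the authors' mean log2 normalised expression, and the log2 fold change, t, p-value and adjusted p-value of their comparison. Only the mean was used, with decimal commas converted. The other columns hold the authors' findings and were left out. The linear values (2 to the power of the mean) added up to 989369, near the 1000000 of values scaled as CPM. Since a value pools both treatments, a gene that differs between them has a level between those of the treated and control samples.

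Symbols were matched to GENCODE M21 for 11767 genes, and through 1 older symbol for 598. The 224 other genes got no level. No test was run, and the functions were tested on simulated data. The members and lists were chosen with earlier results of these data known. All members with a row could be named, and of the other pathway genes the 5 highest, with Smad9 named in addition. Alternatives were no length correction, the longest transcript, a filter that kept genes whose mean was 1 or more on the log2 scale, the basic transcript set and, for the modulators, leaving out Crim1. Python 3.11.15, numpy 2.4.6, pandas 2.3.3 and matplotlib 3.10.9 were used.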

Additional observations from a re-analysis of the deposited data

How the results depend on the processing

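The basic transcript set and leaving out Crim1 were chosen as alternatives after seeing the data, and the others were planned. The count of members above the median level of all genes was 26 and lay between 25 and 33 under the alternatives, and the count in the top 10% was 7 and lay between 7 and 8. The members behind the latter count changed, however. With no length correction Id1 and Id3 left the top 10%, and Ltbp3, Bmpr1a and Tgfb1i1 entered it. The median of receptors minus that of ligands, -0.62, became 1.03 with no length correction, which turned its direction, -0.67 with the longest transcript, -0.30 among genes whose mean was 1 or more on the log2 scale, where Acvr2b and Id4 drop out, and -0.67 with the basic transcript set. The median of extracellular modulators minus that of ligands, 1.21, became 1.83 with no length correction, 1.27 with the longest transcript, 1.11 with the basic transcript set and 0.36 without Crim1, and was 1.21 again among the genes at 1 or more. The median of BMP receptors minus that of TGF-beta and activin receptors together, 0.53, became 1.61 with no length correction and 1.05 with the longest transcript. It was 0.22 among the genes at 1 or more and 0.98 with the basic transcript set, so that only its direction is common to these settings. None of them covers Bmpr1b, a BMP receptor gene without a row. With Bmpr1b under Bmpr2, which was at 1.54, the BMP median would be 1.54, below the 1.79 of the other group. Against the 2 TGF-beta receptors alone, with a median of 4.33, the BMP receptors with a median of 2.32 were lower. Of the 1326 pairs of members, 120 changed their order with no length correction, 42 with the longest transcript and 41 with the basic transcript set. No paired analysis was possible because only a mean over samples was at hand, and for the same reason leaving out each replicate was not run. The paper gives an average number of sequenced clusters per sample, but the depth of each library was not at hand. The precision of the levels, which is poorest for weakly expressed genes such as Acvr2b and Id4, could therefore not be given.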
